A study of Mus musculus with 6 samples.

Results

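The genes of sterol and fatty acid synthesis were examined in intestinal epithelial cells of caspase-8 deficient mice and of floxed control mice. They were chosen as a named list of 33 enzymes and regulators, 22 of sterol synthesis and 11 of fatty acid synthesis, and each was read from its brightest probe set paired with that gene alone (highest mean of the 6 arrays). Of the list, 32 genes had such a probe set, 21 in the sterol arm and 11 in the fatty acid arm, out of 18193 genes measured. Acat2 is not analysed here. All animals were C57BL/6 and carried the floxed casp8 gene. The 3 caspase-8 deficient mice were also positive for villin-Cre, in which the villin promoter drives Cre recombinase in the gut epithelium, and the 3 floxed control mice were villin-Cre negative, so that the controls carry no Cre. Each animal gave 1 array of total RNA. The labels name neither the age and sex of the animals nor the gut segment, and do not say which exons were removed.

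Cells build cholesterol and fatty acids from acetyl-CoA. In the sterol arm, acetyl-CoA passes through mevalonate, the prenyl phosphates and squalene to lanosterol, which is trimmed to cholesterol. In the fatty acid arm it is carboxylated to malonyl-CoA, assembled into palmitate, and then elongated and desaturated. Both arms are transcribed under the SREBP factors, encoded by Srebf2, which mainly drives sterol genes, and Srebf1, which mainly drives fatty acid genes. The INSIG proteins hold these factors in the endoplasmic reticulum when sterols are plentiful. The small intestine is a major site of cholesterol synthesis in the mouse and packs fat into chylomicrons.

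Across all genes, 141 of 18193 (0.775%) passed an adjusted p of 0.05 in limma, a linear model with variances moderated across genes, with 0.308% higher and 0.467% lower in the deficient cells. That count was 251 without deficient replicate 1, and 18 to 56 when any other single array was left out. Casp8 itself read 9.27, 9.56 and 10.40 in the deficient cells and 10.53, 9.74 and 10.24 in the controls on the log2 scale, with deficient replicate 3 above 2 of the 3 controls. Its difference of −0.43 did not pass (limma, adjusted p = 0.518), and its probe set may lie outside the deleted part, so it cannot check the genotypes. The epithelial markers Vil1 (12.84 to 12.89 in deficient cells, 12.58 to 12.59 in controls) and Epcam (13.31 to 13.42 in deficient cells, 13.17 to 13.29 in controls) were bright on every array, where array medians lay between 4.85 and 4.91. Of all 14 pan-epithelial genes listed, 8 were above 0 and 6 below, with a median of 0.05. Groups did not overlap for 4 that were higher and 2 that were lower (42.9% in either direction, against 22.7% of all genes). Esrp1, an epithelial splicing regulator, and Cdx1, an intestinal transcription factor, had the smallest p of that list. Both were lower without overlap (−0.52 and −0.48), with deficient replicate 3 the lowest array and control replicate 2 the highest. Vil1 and Krt20, next by p, were higher without overlap (0.28 and 0.26). RNA integrity was read as the signal of the 3′ Gapdh control probe set minus that of the 5′ one, in log2 units, which grows as RNA degrades. This Gapdh difference was 0.29, 0.21 and 0.23 on deficient arrays 1, 2 and 3 and 0.68, 0.93 and 0.22 on control arrays 1, 2 and 3. Deficient replicate 1 stood apart in endothelial genes: its mean over 12 of them lay 2.14 log2 units above the control mean, against −0.01 and 0.01 on the other deficient arrays and −0.17 to 0.14 on the control arrays. Of these endothelial genes 11 of 12 were above 0 in the difference of means, with a median of 0.64. Among immune lists, 8 of 8 B and plasma cell genes were below 0, with a median of −0.85. Of these, 3 (37.5%) were without overlap, where 11.2% of all genes were lower without overlap. Their summed linear levels were 405 to 778 in deficient cells and 727 to 1950 in controls, with 1950 on control replicate 3. That array stood apart in this list. Relative to the control mean of each gene, the list averaged −0.461, −0.416 and 0.878 on control arrays 1, 2 and 3. It averaged −0.996, −0.818 and −0.683 on deficient arrays 1, 2 and 3. Of the T cell genes, 7 of 8 were below 0 (median −0.18, all overlapping). Fibroblast and smooth muscle genes were above 0 for 8 of 12, and deficient replicate 1 stood apart here too. Relative to the control mean of each gene, this list averaged 0.86 on that array. It averaged 0.17 and −0.12 on deficient arrays 2 and 3, and −0.18 to 0.34 on the control arrays. The part of these cell types in the members' values was not tested.

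Among the 32 members, 0 passed over all genes (limma, lowest adjusted p = 0.130), and 9 had an unadjusted p under 0.05 (28.1%, against 16.6% of all genes), with deficient cells higher for 2 of these and lower for 7. The members' differences are therefore given as values with their errors. The arms had different medians, a contrast that was not tested. In the fatty acid arm 9 of 11 differences were below 0, with a median of −0.35 on the log2 scale. In the sterol arm 10 of 21 were below 0, with a median of 0.04, against 46.1% of all genes below 0 and a median of 0.02.

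Most fatty acid genes had a lower mean in the deficient cells, although 0 of 11 passed. Groups did not overlap for 4 of its 11 genes, all of them lower in the deficient cells (36.4%, where 11.2% of all genes were lower without overlap). An unadjusted p under 0.05 and a lower level were found for 4 of 11 genes, where 8.53% of all genes had both. That count was 0 without deficient replicate 3, 1 without control replicate 2 and 6 without deficient replicate 1. Of the regulators, Srebf1 averaged 9.03 ± 0.31 in deficient cells and 9.29 ± 0.17 in controls (SD, n = 3 each). Its difference was −0.26 with a 95% confidence interval of −0.67 to 0.15, or −0.09 without deficient replicate 3.

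Cytosolic acetyl-CoA comes from citrate through ATP citrate lyase, encoded by Acly, and from acetate through acetyl-CoA synthetase, encoded by Acss2. Acly read 9.42, 9.10 and 8.87 on the deficient arrays, against 9.51, 9.87 and 9.47 on the control arrays. All 3 deficient values lay below all 3 control values, and the difference was −0.49 (SE 0.18, limma adjusted p = 0.235). Its next brightest probe set stood at −0.54, while 4 dimmer ones ran from −0.29 to 0.00. Acss2 read 7.823, 7.995 and 7.670 in deficient cells, against 8.111, 8.374 and 8.045 in controls, again without overlap. Its difference was −0.35 (SE 0.14, adjusted p = 0.271), and its other probe sets stood at −0.18 and 0.03. With the Gapdh difference added to the fit as a covariate, Acly stood at −0.29 and Acss2 at −0.20. Me1, the malic enzyme that supplies NADPH for synthesis, ran the other way, at 8.50, 8.50 and 9.01 in deficient cells and 8.22, 8.51 and 8.69 in controls. The groups overlapped, with a difference of 0.19 (95% confidence interval −0.24 to 0.62), and its second probe set stood at 0.50.

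Acaca encodes acetyl-CoA carboxylase, the committed step of fatty acid synthesis, and Fasn the fatty acid synthase that assembles palmitate. Acaca read 7.74, 7.47 and 7.11 in deficient cells, against 7.82, 8.07 and 7.64 in controls. Fasn read 7.851, 7.588 and 6.910 in deficient cells, against 7.996, 8.194 and 7.837 in controls. In both genes deficient replicate 3 was the lowest array and deficient replicate 1 overlapped the controls. The differences were −0.40 (SE 0.19, limma adjusted p = 0.333) for Acaca and −0.56 (SE 0.23, adjusted p = 0.286) for Fasn. Without deficient replicate 3 they were −0.24 and −0.29. The second Acaca probe set stood at 0.10, and Acaca was −0.17 and Fasn −0.36 with the Gapdh covariate. Elovl6, which elongates palmitate to stearate, varied by 0.22 log2 units over the 6 arrays and differed by −0.06 (95% confidence interval −0.32 to 0.21). Its other probe sets differed from each other, at 0.02 for the next brightest and −0.50, without overlap, for the dimmest.

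The desaturases differed among themselves. Fads2, the first desaturase on the way to long polyunsaturated fatty acids, read 8.17, 8.07 and 7.82 in deficient cells, against 8.59, 9.01 and 8.30 in controls. No deficient array reached the lowest control, and Fads2 had the smallest p of the arm (difference −0.61, SE 0.19, 1.53-fold lower, limma adjusted p = 0.183). Its other probe sets stood at −0.46 and −0.41. The difference was −0.26 with the Gapdh covariate (adjusted p = 0.722) and −0.28 without control replicates 1 and 2, a setting chosen after seeing the data. Both settings lean largely on control replicate 3. Fads1, the next desaturase of that route, differed by −0.34 (SE 0.21), with overlap, and by −0.05 with the Gapdh covariate.

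Scd2, a stearoyl-CoA desaturase that makes monounsaturated fatty acids, read 10.58, 10.64 and 9.08 in deficient cells, against 10.98, 10.68 and 10.93 in controls. Deficient replicate 3 lay far below the other 5 arrays, and the difference was −0.76 (SE 0.38, adjusted p = 0.361). Without that array the difference was −0.25. The groups did not overlap, but deficient replicate 2 at 10.64 was just below control replicate 2 at 10.68. The other Scd2 probe sets stood at −0.64 and −0.31, both with overlap. Its related gene Scd1 read 5.60, 5.51 and 4.57 in deficient cells, against 4.95, 4.37 and 5.91 in controls. The Scd1 groups overlapped, with a difference of 0.15 (95% confidence interval −0.79 to 1.09). Deficient replicate 3 was the lowest deficient array for both genes.

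**Figure D1:**
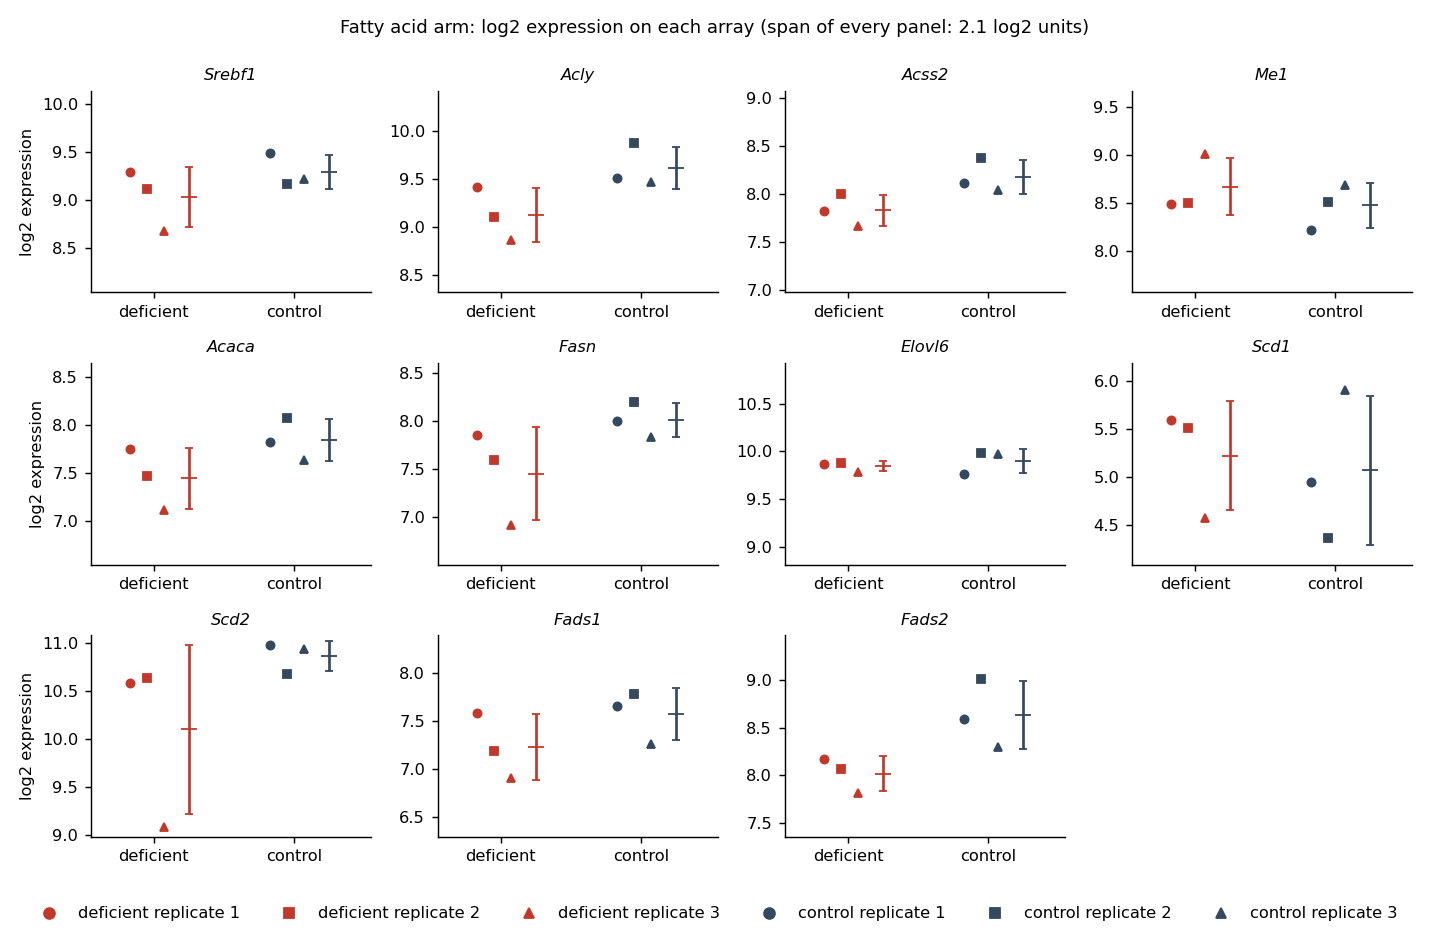
Log2 expression (vertical axis) of the 11 fatty acid genes on each array, deficient left and control right, with the mean and SD of each group as a bar. Deficient replicate 3, the red triangle, is the lowest of the 6 arrays in 8 of 11 genes, and Me1 has it highest.

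Array by array, the fatty acid arm spread within the deficient group. Its mean over 11 genes, taken relative to the control mean of each gene, was −0.09, −0.22 and −0.64 on deficient arrays 1, 2 and 3, against −0.03, 0.05 and −0.02 on the control arrays. Deficient replicate 3 was the lowest array for 8 of 11 genes (72.7%), where it was lowest for 18.9% of all genes. Control replicate 2 was the highest array for 7 of 11 (63.6%), where it was highest for 22.7% of all genes. Deficient replicate 2 lay below all controls for 8 of 11 genes (72.7%, against 25.8% of all genes) and deficient replicate 1 for 4 of 11 (36.4%, against 26.3%). The median difference of the arm was −0.52 without deficient replicate 1 and −0.24 without deficient replicate 3.

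Deficient replicate 3 was also the lowest array, and control replicate 2 the highest, for a list of crypt proliferation genes. Of 14 such genes listed, 13 were analysed, and 13 of 13 had a lower mean in deficient cells, of which 0 passed. An unadjusted p under 0.05 was reached by 8, where 8.53% of all genes were lower at that level. Groups did not overlap for 9 (69.2%, where 11.2% of all genes were lower without overlap). The array means of this list were −0.32, −0.37 and −0.54 on the deficient arrays and 0.01, 0.18 and −0.19 on the control arrays. Its summed level on the linear scale was 5800 to 6770 in deficient cells and 7420 to 9550 in controls. As in any bulk RNA, fewer cells of a type and less RNA per cell cannot be told apart here, and the part of proliferating cells in the fatty acid values was not tested. The Gapdh difference of control replicate 3 was as low as that of the deficient arrays. Relative to it alone, a setting chosen after seeing the data, 11 of 11 fatty acid genes were lower. Their median was −0.22, against 0.01 for all genes. This rests on 1 control array, and Me1 (−0.025) and Scd1 (−0.68) changed sign in it. With the Gapdh difference as a covariate, 10 of 11 were below 0, with a median of −0.25 and 0 with an unadjusted p under 0.05. Only control arrays 1 and 2 (0.68 and 0.93) stood apart in that covariate, so this fit also leans largely on control replicate 3. It is therefore not a separate check. Fat cells also make fatty acids, and their markers were read too. Of 11 adipocyte genes analysed of 13 listed, 0 passed and 10 had a positive difference, with summed levels of 1470 to 1690 in deficient cells and 925 to 1180 in controls. Adipoq read 2.83 to 2.85 in deficient cells and 2.25 to 2.74 in controls, and Lep 2.45 to 2.53 in deficient cells and 2.45 to 2.50 in controls, so that both lay below the median of every array. Other genes of the list, which further cell types also express, were bright: the lipid droplet protein Cidec read 9.68 to 9.84 in deficient cells and 8.58 to 9.46 in controls (difference 0.79), and Pparg 7.21 to 7.73 in deficient cells and 6.71 to 7.14 in controls (difference 0.51), both without overlap. Lpl, a lipase, read 8.01 on deficient replicate 1 and 3.41 to 4.28 on the other 5 arrays. The part of fat cells in the fatty acid values was not tested.

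**Figure D2:**
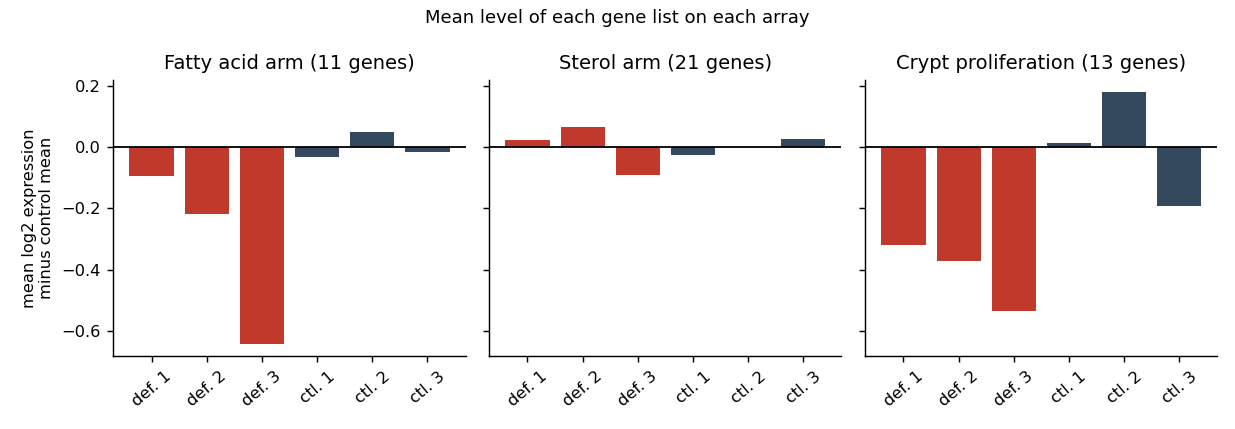
Mean log2 expression of each list on each array (vertical axis), relative to the control mean of each gene, with deficient arrays in red left of control arrays in dark blue. The fatty acid arm reaches −0.64 on deficient replicate 3, the sterol arm stays between −0.09 and 0.07, and the proliferation list lies between −0.54 and −0.32 on the deficient arrays.

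The sterol arm held genes on both sides of 0. Its array means were 0.02, 0.07 and −0.09 on the deficient arrays and lay between −0.03 and 0.03 on the control arrays. Groups did not overlap for 2 genes that were higher and 3 that were lower in deficient cells, out of 21, where 11.5% of all genes were higher and 11.2% lower without overlap. An unadjusted p under 0.05 was reached by the same 5 genes (8.12% of all genes were higher and 8.53% lower at that level). Deficient replicate 3 was the lowest array for 11 of 21 genes (52.4%, where it was lowest for 18.9% of all genes), so that this was not particular to the fatty acid arm.

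Among the regulators, Insig2 had the largest difference of all 32 members. It read 8.90, 9.74 and 9.56 in deficient cells, against 8.40, 8.76 and 8.54 in controls. All deficient arrays lay above all controls, deficient replicate 1 by the least, and the difference was 0.83 (SE 0.22, 1.78-fold higher, limma adjusted p = 0.134). Its other probe sets gave 0.82 and 0.81, but on both of them deficient replicate 1 overlapped the controls. Insig2 passed without deficient replicate 1 (difference 1.08, adjusted p = 0.0289) and with array weights (adjusted p = 0.0141). Under the remaining alternatives its adjusted p ran from 0.0705 to 0.743. Insig1, whose product also retains the SREBP complex and whose gene is an SREBP target, differed by −0.04 (95% confidence interval −0.45 to 0.37).

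Srebf2 read 8.50, 8.55 and 8.27 in deficient cells, against 8.62, 9.34 and 8.46 in controls. Control replicate 2 stood above the rest, and the difference was −0.37 (SE 0.22, adjusted p = 0.455), or −0.10 without that array. Stard4, which encodes a cholesterol carrier of the cytosol, read 9.79, 9.72 and 9.69 in deficient cells, against 10.08, 10.15 and 9.87 in controls, without overlap (difference −0.30, SE 0.12, adjusted p = 0.263). Its other probe sets stood at −0.33 and −0.06, and its difference was −0.15 with the Gapdh covariate.

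**Figure D3:**
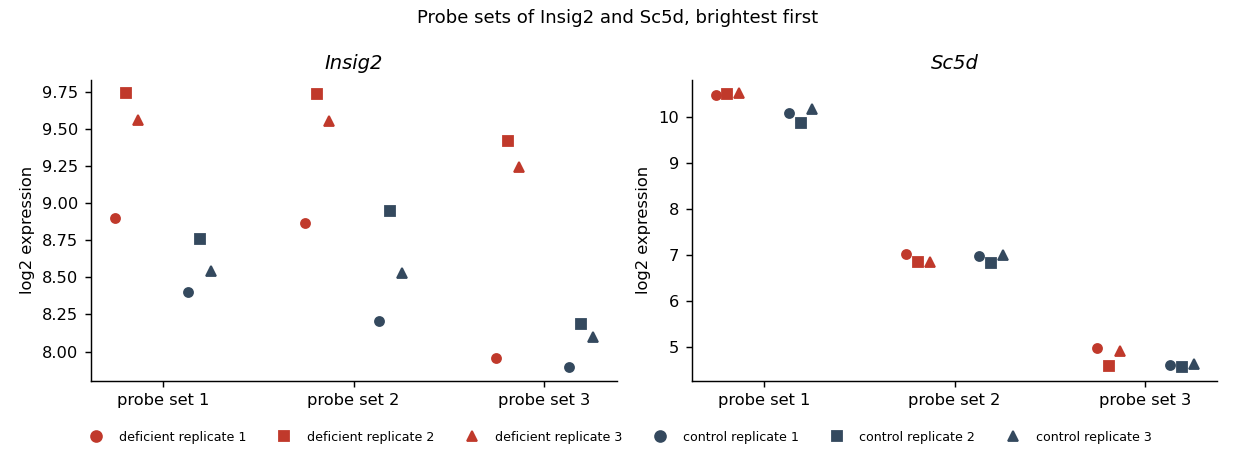
Log2 expression (vertical axis) of the 3 probe sets of Insig2 and of Sc5d on each array, brightest probe set first, deficient arrays in red left of control arrays in dark blue. Deficient replicates 2 and 3 lie above all controls on every Insig2 probe set, while only the brightest Sc5d probe set separates the groups.

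Of the 9 early sterol enzymes, which lead to lanosterol, 4 differences were above 0 and 5 below, with a median of −0.11. Hmgcs1, the synthase that makes HMG-CoA, averaged 11.66 ± 0.25 in deficient cells and 11.98 ± 0.24 in controls (difference −0.32, SE 0.18, limma adjusted p = 0.411). Without deficient replicate 3 or control replicate 2 its difference was −0.20. Its 4 other probe sets ran from −0.58 to −0.11. The dimmest, at −0.58, was lower without overlap but did not pass among all single-gene probe sets (limma, adjusted p = 0.0982). Mvk, Pmvk and Mvd, the kinases and the decarboxylase that turn mevalonate into isopentenyl diphosphate, differed by 0.05, 0.04 and −0.16. Idi1, the isomerase of that product, differed by −0.19 (SE 0.12).

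The next enzymes build squalene and close it into the sterol ring. Fdps, the farnesyl diphosphate synthase, averaged 9.87 ± 0.11 in deficient cells and 9.60 ± 0.32 in controls, a difference of 0.27 (SE 0.17), or 0.11 without control replicate 2. Fdft1, squalene synthase, read 10.21, 10.16 and 9.77 in deficient cells, against 10.44, 10.68 and 10.45 in controls. The groups did not overlap (difference −0.48, SE 0.15, adjusted p = 0.186), but this probe set ends in _x_at and may bind related genes. The next brightest Fdft1 probe set overlapped at −0.22. The dimmer ones were higher, at 0.19 without overlap and 0.26 with overlap. Sqle, the squalene epoxidase that limits the later route, and Lss, the cyclase that forms lanosterol, differed by 0.06 (95% confidence interval −0.24 to 0.37) and −0.11 (−0.54 to 0.33). The other Lss probe sets were lower still, at −0.48 without overlap and at −0.39 with overlap.

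Of the 8 enzymes after lanosterol, 6 differences were above 0 and 2 below, with a median of 0.13. Sc5d, the desaturase that makes the precursor of cholesterol's last step, had the smallest p of all members, each read from its brightest probe set. It read 10.48, 10.50 and 10.50 in deficient cells, against 10.08, 9.87 and 10.17 in controls, so that the deficient arrays lay together above every control. The difference was 0.46 (SE 0.12, 1.37-fold higher, limma adjusted p = 0.130), passing with array weights alone among the alternatives (adjusted p = 0.0321, and 0.0699 to 0.712 otherwise), and its dimmer probe sets stood at −0.03 and 0.23.

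Dhcr7, which encodes the reductase of that last step, read 8.55, 8.52 and 8.45 in deficient cells, against 8.96, 9.17 and 8.60 in controls. Here the deficient arrays lay together below every control (difference −0.41, SE 0.16, adjusted p = 0.252). Consecutive enzymes of the route, Sc5d and Dhcr7, thus stood on opposite sides of 0, although neither passed. The Dhcr7 difference was −0.12 with the Gapdh covariate and −0.10 without control replicates 1 and 2, while that of Sc5d was 0.31 and 0.33. Both settings lean largely on control replicate 3. Tm7sf2, a sterol reductase, read 8.69, 8.55 and 8.80 in deficient cells, against 8.42, 8.32 and 8.59 in controls, with overlap. Its difference was 0.24 (SE 0.13, limma adjusted p = 0.392), or 0.11 with the Gapdh covariate. The lanosterol demethylase Cyp51, the methylsterol oxidase Msmo1, the sterol dehydrogenase Nsdhl, the sterol isomerase Ebp and the ketoreductase Hsd17b7 differed by −0.13 to 0.18, each with overlapping groups.

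**Figure D4:**
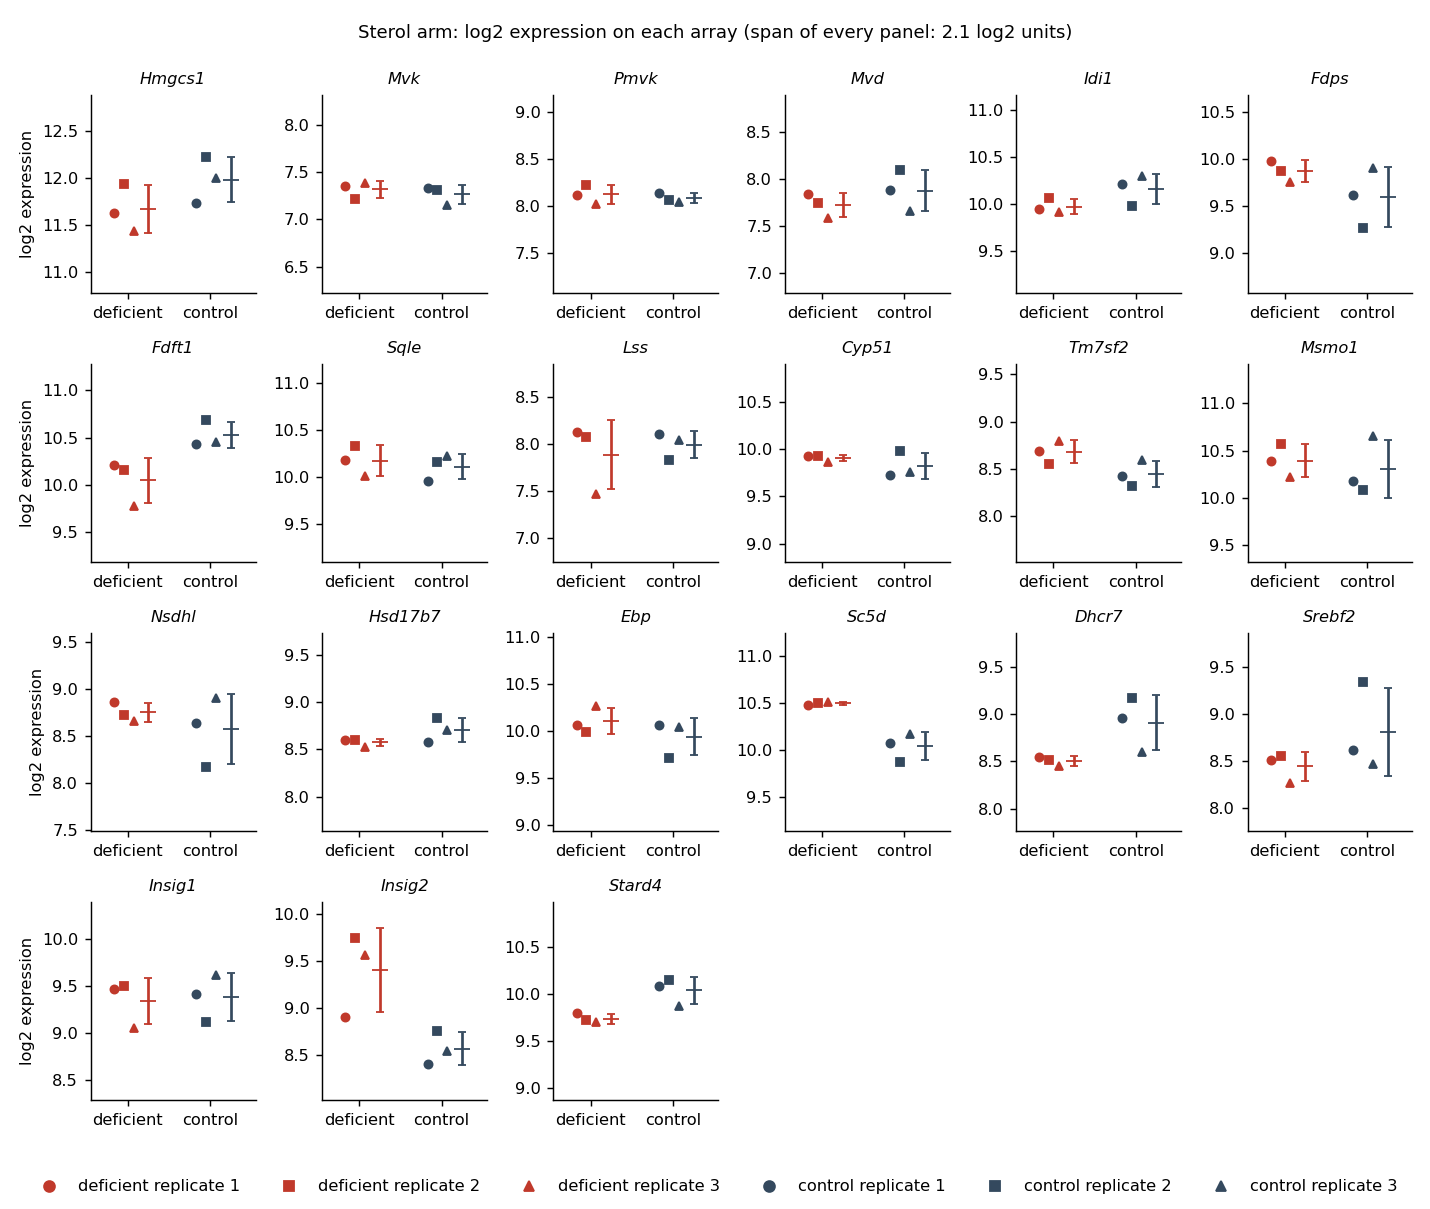
Log2 expression (vertical axis) of the 21 sterol genes on each array, deficient left and control right, with the mean and SD of each group as a bar. Insig2 and Sc5d separate upwards in deficient cells, and Fdft1, Dhcr7 and Stard4 downwards.

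**Figure D5:**
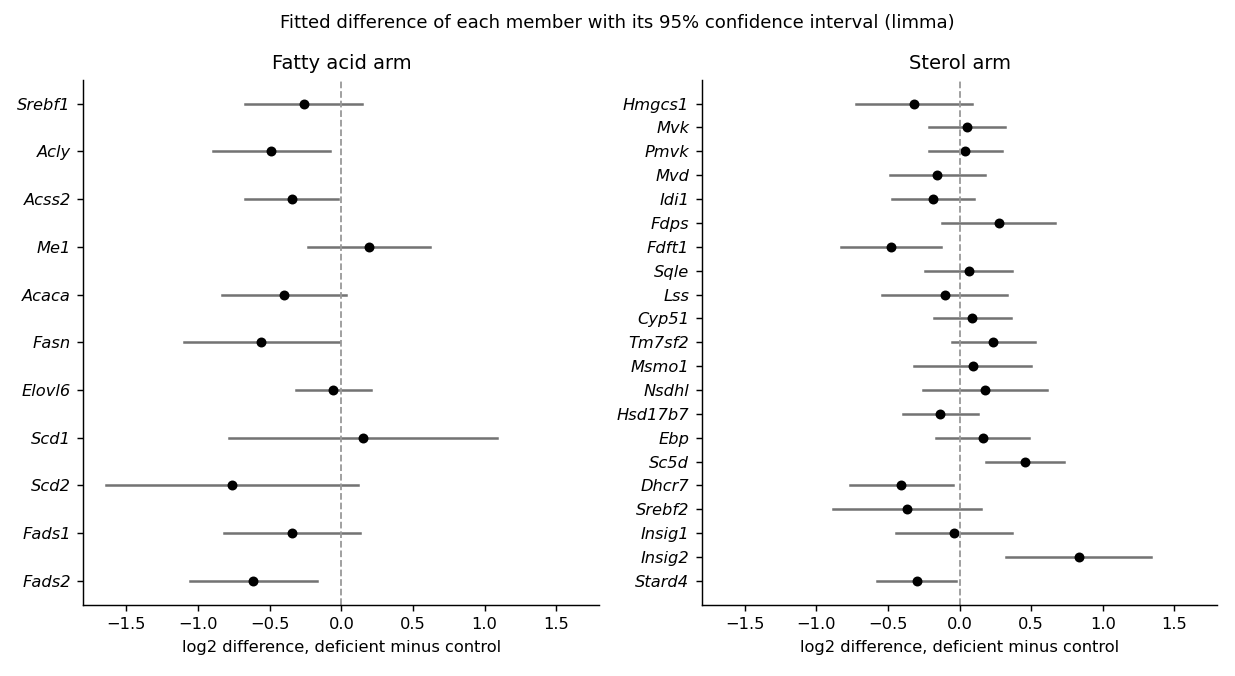
Fitted log2 difference, deficient minus control (horizontal axis), of each member with its 95% confidence interval as a line, fatty acid arm left and sterol arm right. Of the fatty acid genes 9 of 11 lie below 0, while the sterol genes lie on both sides, from −0.48 for Fdft1 to 0.83 for Insig2.

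Promoter sequences from RefSeq (GRCm38.p6, 250 bases before to 50 after the start, read 5′ to 3′ along the gene) were matched to 25 of the 32 members, with 33 starts in all. Shown are the most upstream start of the 2 genes with the smallest p in each arm, and Hmgcs1, the member that held the sterol regulatory element letters searched. Capitals mark, on either strand, TCACNCCAC (a sterol regulatory element), CCAAT (the box bound by NF-Y, a partner of SREBP) and GGGCGG (the box bound by Sp1). None of these matches overlapped another in the promoters shown.
Sc5d, chr9:42264251-42264550, minus strand: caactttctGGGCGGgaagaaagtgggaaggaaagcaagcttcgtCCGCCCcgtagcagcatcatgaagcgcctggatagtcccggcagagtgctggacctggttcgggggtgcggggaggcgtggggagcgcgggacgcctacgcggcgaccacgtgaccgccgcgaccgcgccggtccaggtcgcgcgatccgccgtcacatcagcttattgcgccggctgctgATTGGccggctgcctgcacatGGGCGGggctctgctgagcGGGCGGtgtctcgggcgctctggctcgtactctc
Insig2, chr1:121332540-121332839, minus strand: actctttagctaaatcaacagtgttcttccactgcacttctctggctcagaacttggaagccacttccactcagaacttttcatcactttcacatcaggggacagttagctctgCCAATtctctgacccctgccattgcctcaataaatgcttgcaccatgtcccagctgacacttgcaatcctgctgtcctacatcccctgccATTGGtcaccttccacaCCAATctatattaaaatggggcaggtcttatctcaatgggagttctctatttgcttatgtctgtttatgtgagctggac
Fads2, chr19:10101454-10101753, minus strand: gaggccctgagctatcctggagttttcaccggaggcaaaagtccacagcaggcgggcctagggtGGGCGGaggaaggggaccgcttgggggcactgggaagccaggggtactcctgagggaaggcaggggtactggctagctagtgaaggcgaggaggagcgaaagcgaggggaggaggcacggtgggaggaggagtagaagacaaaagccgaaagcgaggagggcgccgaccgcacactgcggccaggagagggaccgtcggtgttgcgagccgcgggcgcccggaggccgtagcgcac
Acly, chr11:100527951-100528250, minus strand: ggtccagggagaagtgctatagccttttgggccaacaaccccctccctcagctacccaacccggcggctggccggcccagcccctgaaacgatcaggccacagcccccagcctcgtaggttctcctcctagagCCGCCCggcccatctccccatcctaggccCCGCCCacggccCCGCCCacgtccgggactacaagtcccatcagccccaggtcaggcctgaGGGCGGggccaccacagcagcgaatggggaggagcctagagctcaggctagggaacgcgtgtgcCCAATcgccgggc
Hmgcs1, chr13:119690101-119690400, plus strand: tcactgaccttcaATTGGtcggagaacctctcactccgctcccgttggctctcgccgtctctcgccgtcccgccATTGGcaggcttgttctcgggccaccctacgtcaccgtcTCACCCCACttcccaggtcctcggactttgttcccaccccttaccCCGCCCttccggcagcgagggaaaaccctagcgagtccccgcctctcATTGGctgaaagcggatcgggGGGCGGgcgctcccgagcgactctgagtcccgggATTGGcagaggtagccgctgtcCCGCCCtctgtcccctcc

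TCACNCCAC was in 1 of the 33 member promoters (3.03%), that of Hmgcs1, against 1.24% of all 32851 promoters of this length. CCAAT was in 23 of 33 (69.7%, against 37.4% of all), and GGGCGG in 24 of 33 (72.7%, against 35.7%). By gene, counting any start, 17 of 17 sterol genes and 5 of 8 fatty acid genes held CCAAT, against 41.1% of all genes. CANNTG, the E-box, was in 25 of 33 (75.8%, against 72.3%). Insig2 has 3 starts in RefSeq, of which the one shown held 3 CCAAT boxes and no GGGCGG. Fads2 held 1 GGGCGG and no CCAAT, and Sc5d and Acly held 4 GGGCGG and 1 CCAAT each. These matches describe the letters alone.

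Genes around the members in the pathway were read from lists written beside them. Of 16 further sterol genes analysed of 24 listed, 0 passed, with 2 higher and 4 lower without overlap (37.5% in either direction, against 22.7% of all genes) and a median of −0.01. Npc1, which moves cholesterol out of lysosomes, averaged 8.59 ± 0.28 in deficient cells and 7.82 ± 0.25 in controls (difference 0.77, limma adjusted p = 0.106). Scap, which escorts the SREBP factors to the Golgi, stood at −0.37 (adjusted p = 0.217). Lbr, a nuclear envelope protein with the same sterol reductase activity as Tm7sf2, stood at −0.46 (adjusted p = 0.163), and the prenyl synthase Ggps1 at 0.37. Of 10 genes of LXR signalling and sterol export analysed of 11 listed, 0 passed and 7 were above 0, with the phospholipid acyltransferase Lpcat3 at 0.22, the receptor Nr1h3 at 0.32, the sterol exporter subunit Abcg5 at 0.26 and Cyp27a1 at 0.30.

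Of 17 further fatty acid genes analysed of 18 listed, 0 passed, with 3 higher and 3 lower without overlap (35.3% in either direction, against 22.7% of all genes). Acsl3, which activates fatty acids for lipid droplets, averaged 10.15 ± 0.34 in deficient cells and 9.05 ± 0.34 in controls (difference 1.10, SE 0.22, limma adjusted p = 0.0758). Elovl5 and Hacd3, which elongate fatty acids, stood at −0.53 and −0.46, and Fads3 at 0.69. Of 14 genes of glycerolipid assembly, 0 passed, while 7 were higher and 2 lower without overlap (64.3% in either direction, against 22.7% of all genes) and 11 were above 0, with a median of 0.21. Plin3, a lipid droplet coat protein, averaged 11.08 ± 0.12 in deficient cells and 10.52 ± 0.03 in controls (difference 0.55, adjusted p = 0.0758). Mttp, which loads fat onto apolipoprotein B, stood at 0.47 and the phosphatase Lpin3 at 0.49, and Gpam, the acyltransferase that starts triglyceride synthesis, at −0.65. Mature enterocyte genes were also mostly above 0. Of 12 genes analysed of 13 listed, 0 passed and 10 were above 0, with 7 higher and 1 lower without overlap (66.7% in either direction, against 22.7% of all genes). By smallest p, Treh stood at 0.58, Mep1a at −0.87, Fabp1 at 0.46 and Apob at 0.31. Mep1a was the gene lower without overlap (limma, adjusted p = 0.119). The summed linear levels of the list were 93400 to 95400 in deficient cells and 76800 to 84700 in controls. The part of mature enterocytes in these values was not tested.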

How the data were processed

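Total RNA of intestinal epithelial cells was hybridised to a 3′ Affymetrix array, 1 array per animal, per the labels' protocols. The authors deposited log2 expression values made with RMA, per the submitters' processing notes. No source used here gives the RMA version or options. RMA understates the differences of dim genes. Precision is limited by the number of arrays.

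Of 45101 probe sets, 64 were controls, 34945 were paired with 1 gene by GEO's annotation of the platform (possibly outdated), 932 with several and 9160 with none. Each gene was represented by its brightest single-gene probe set, which left 18193 genes. Probe sets ending in _x_at or _s_at may bind related genes. Deficient minus control was fitted with limma 3.58.1 (R 4.3.3) by lmFit and eBayes with no term other than group, two-sided, with Benjamini-Hochberg adjustment over the 18193 genes and a threshold of 0.05. The steps were tested on simulated data. The p-values measure the spread between the arrays, which the labels call biological replicates.

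The members and lists were chosen with earlier results of these data known. The naming rule takes all members, Casp8 and up to 4 genes with the smallest p of each list. Values on every array are given for the 6 members of each arm with the smallest p and for those spanning more than 2-fold, and Me1 was added after its values were seen. Vil1, Epcam, Adipoq and Lep were named as defining markers, and Lpl after its values were seen. Of the remaining marker lists, 0 of 12 endothelial, 12 fibroblast and smooth muscle, 8 T cell, 8 B and plasma cell and 14 pan-epithelial genes passed. Of 11 myeloid genes Mrc1 passed as higher and Lyz2 as lower, with 6 genes above 0 and 5 below. Of 8 pancreatic acinar genes Clps and Pnliprp1 passed as lower, with 2 genes above 0 and 6 below (0.775% of all genes passed). Cela1 of that list was higher without overlap (0.72, not passing), and Ctrb1 overlapped (−0.17). The alternatives cover each array left out, the replicate number as a block, the probe set choice, dim genes, the variance prior, array weights, scaling and the Gapdh difference.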

Additional observations from a re-analysis of the deposited data

How the results depend on the processing

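With 3 arrays per group, the differences of the 32 members could not be separated from the spread between arrays, as 0 passed under the settings above. The number of members that passed was 0 in the fatty acid arm under every alternative run. In the sterol arm it was 0 to 1 when 1 array was left out, the 1 being Insig2 without deficient replicate 1, and 2 with array weights, Insig2 (1.10, adjusted p = 0.0141) and Sc5d (0.43, adjusted p = 0.0321). The fatty acid median ran from −0.52 to −0.24 without each array in turn and stayed below 0 under all alternatives. The sterol median ran from −0.021 (without control replicate 2) to 0.091 (without deficient replicate 3) without each array in turn, and was 0.10 with median centring, −0.028 with the Gapdh covariate and −0.045 without control replicates 1 and 2, a setting chosen after seeing the data.

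The count over all genes was 18 to 251 without each array in turn (251 without deficient replicate 1, 23 and 18 without deficient replicates 2 and 3, and 23, 31 and 56 without control replicates 1, 2 and 3). It was 298 with dim genes left out (fewer genes tested), 252 with a variance trend and robust prior, 1406 with array weights, 36 with the Gapdh covariate and 5 without control replicates 1 and 2. The causes of these shifts were not tested.

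The replicate number as a block changed no call of a member, and 113 genes passed over all genes. Same-numbered arrays did not deviate together throughout (correlations of 0.08, 0.10 and −0.01 for numbers 1, 2 and 3), and not every array correlated best with its own number.

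Some differences that did not pass changed sign. With the Gapdh covariate these were Scd1 (−0.61), Srebf2 (0.036), Fdps (−0.028), Mvd (0.066), Nsdhl (−0.16) and Msmo1 (−0.21). Without control replicates 1 and 2 they were Me1 (−0.025), Scd1 (−0.68), Fdps (−0.033), Mvd (0.065), Nsdhl (−0.16), Msmo1 (−0.26) and Sqle (−0.045). With the mean over probe sets they were Hsd17b7 (0.072), Cyp51 (−0.034) and Msmo1 (−0.0045), and without _x_at and _s_at probe sets Hsd17b7 (0.14) and Mvd (0.058). Array weights turned Elovl6 (0.040) and Mvk (−0.029), median centring turned Elovl6 (0.0063) and Insig1 (0.022), and a repeated quantile normalisation turned Sqle (−0.016). Leaving out 1 array gave ranges across 0 for Scd1 (−0.20 to 0.57), Nsdhl (−0.021 to 0.35), Lss (−0.23 to 0.11), Msmo1 (−0.019 to 0.27), Sqle (−0.016 to 0.14), Mvk (−0.0036 to 0.11), Pmvk (−0.011 to 0.091) and Insig1 (−0.17 to 0.10). With dim genes left out, Scd1 had no value.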
